A study of Mus musculus with 24 samples.

Results

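Death receptors of the TNF family, the kinase and pore proteins of necroptosis and pyroptosis, and the inhibitor of apoptosis proteins (IAPs) were examined as 10 genes chosen by symbol: Tnfrsf10b, Fadd, Cflar, Ripk1, Ripk3, Mlkl, Gsdmd, Birc2, Birc3 and Xiap. Of these 10 genes, 9 had a row among the 17696 genes of the count table, and Ripk3 was not analysed here. Genes with under 10 reads in total had been removed from that table. Whether Ripk3 was among them cannot be told from it. The values came from 24 bulk RNA-seq libraries of MIN6 cells, insulinoma-derived mouse β cells kept as a line, in 6 groups of 4 libraries. Scr cells carried a scrambled control construct, ZIP cells a construct that inhibits miR-146a-5p and OE cells a construct that overexpresses it. Each line was left without cytokines or was exposed for 24 h to a mix of IL-1β at 5 ng/ml, IFNγ at 100 ng/ml and TNFα at 10 ng/ml (Scr+Cy, ZIP+Cy and OE+Cy). All lines were puromycin-selected and expanded from single clones, so that a construct and the clone that carried it cannot be told apart. Scr and ZIP shared a vector backbone with a green fluorescent reporter, while OE used another vector with a red one. The labels do not say whether the 4 libraries of a group came from separate cultures, so the p-values measure the spread between these libraries, which may be technical. Libraries with the same replicate number share a tag in the labels across all 6 groups, and the labels do not explain it.

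When a death receptor such as TNF receptor 1 or the TRAIL receptor (Tnfrsf10b) binds its ligand, the adaptor FADD can bring caspase-8 to the receptor complex. cFLIP, encoded by Cflar, competes with and modulates caspase-8 there. RIPK1 is the kinase that stands between survival signalling and death: when caspase-8 is blocked, RIPK1 and RIPK3 activate MLKL, which ruptures the plasma membrane in necroptosis. Gasdermin D (Gsdmd), once cut by inflammatory caspases, forms the pores of pyroptosis. cIAP1 (Birc2) and cIAP2 (Birc3) are ubiquitin ligases that attach chains to RIPK1 and sustain NF-κB signalling, and XIAP directly inhibits caspases. In β cells, IL-1β, IFNγ and TNFα are the classical inflammatory cytokines used to mimic the islet environment in autoimmune diabetes.

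The constructs act on mature miR-146a-5p, which lies at chr11:43374435-43374456 on the minus strand (GRCm38.p6, sequence from RefSeq) and was not itself measured in these libraries. By qRT-PCR the paper reports a higher level in untreated OE cells than in Scr, and no change in untreated ZIP cells. There, miR-146a-5p rose far less with cytokines in ZIP than in Scr cells. It is shown with its seed, positions 2 to 8, in capitals, followed by the 3 matches to that seed in the members' 3′ UTRs, with the 7 matching bases in capitals.
mmu-miR-146a-5p: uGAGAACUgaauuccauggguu
Ripk1, chr13:34034098-34034104: ggtttctcAGTTCTCgctgtcct
Ripk1, chr13:34035950-34035956: tggaagtcAGTTCTCtatacaag
Xiap, chrX:42109275-42109281: agtggtaaAGTTCTCttttggag
Of the 10 genes, 2 held a match, against 2453 of 20958 genes (11.7%) with a 3′ UTR in GENCODE release M21. All 3 sites lie on the plus strand, and none has an A opposite position 1 of the microRNA. The later Ripk1 site lies past the gene end used in the count table, at 34035170. A match is a description of the letters and not of binding. The expression of both genes is given with the other members.

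Promoter windows of 250 bases before the RefSeq start (GRCm38.p6) were found for 7 of the 9 measured genes, without Gsdmd and Tnfrsf10b. They were searched on both strands for an IRF element (GAAANNGAA) and for the NF-κB consensus, because IFNγ induces IRF1 while TNFα and IL-1β act through NF-κB. The windows of Birc3 and Mlkl, the members with the largest cytokine responses among the 7, are shown in lower case, since neither held a match.
Birc3, chr9:7873171-7873420, minus strand: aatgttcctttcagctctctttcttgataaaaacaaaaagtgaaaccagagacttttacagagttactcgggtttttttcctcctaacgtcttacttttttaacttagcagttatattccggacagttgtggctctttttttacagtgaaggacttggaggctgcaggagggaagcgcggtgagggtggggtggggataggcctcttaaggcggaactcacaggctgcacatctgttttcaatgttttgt
Mlkl, chr8:111338206-111338455, minus strand: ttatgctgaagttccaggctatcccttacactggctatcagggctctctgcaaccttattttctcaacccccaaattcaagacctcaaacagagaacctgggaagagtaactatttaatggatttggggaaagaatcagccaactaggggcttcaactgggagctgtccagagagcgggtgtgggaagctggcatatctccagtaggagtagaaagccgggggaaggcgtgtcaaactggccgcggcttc
Of the 3 Xiap windows, 1 held an IRF element, at position -60 before the start. No other window of the 7 genes held either motif. Over 32851 RefSeq promoters, the IRF element was found in 7.13% and the NF-κB consensus in 3.90%. The absence of a match says only that these letters are not in this window.

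Depth ranged from 26657792 to 37168232 reads assigned to genes per library. None of the 9 genes was at the detection limit, set at 3 reads, in any group. The lowest values were 8 reads for Tnfrsf10b, 28 for Birc3 and 44 for Gsdmd, while every library had at least 159 reads for each of the other 6. All 9 β cell markers were measured in every group, with a summed level of at least 18926.9 CPM, where CPM is reads per 1000000 assigned reads. The untreated lines differed in this sum, at 18926.9 to 25216.1 CPM in Scr, 28457.2 to 30975.0 in ZIP and 40149.3 to 43834.2 in OE. The 4 markers of other islet endocrine cells summed to 246.5 to 369.3 CPM in Scr and 101.5 to 304.6 in ZIP. Their sum was 46.0 to 56.0 CPM in OE and 9.09 to 34.7 in OE+Cy. The 5 measured leukocyte markers summed to at most 4.62 CPM in any library, and the acinar and ductal list, which holds Krt19, summed to between 12.4 and 24.2 CPM in OE and OE+Cy against at most 1.14 CPM elsewhere. The 6 fibroblast markers summed to 18.9 CPM in Scr replicate 1, 54.0 CPM in ZIP replicate 1 and 58.7 CPM in Scr+Cy replicate 1, against at most 7.95 CPM in the other 21 libraries. The untreated library ZIP replicate 4 had 31.1 CPM of Cxcl10 and 37.6 CPM of Gbp2, both interferon-response genes, against at most 3.53 and 4.06 CPM in the other ZIP libraries. It was also the highest ZIP library for Mlkl, Gsdmd, Tnfrsf10b and Birc3. Leaving out these 4 libraries together changed the call of 1 member in 1 comparison, Cflar in ZIP+Cy against Scr, given with that comparison. In bulk RNA a difference in RNA per cell and a difference in the share of cells that express a gene cannot be told apart.

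Compared per kilobase of merged exons, to allow for gene length, Xiap was the most abundant member in Scr (11.2 CPM per kb), followed by Birc2 (9.81 CPM per kb) and Ripk1 (7.17 CPM per kb). Fadd, Mlkl and Cflar lay between 5.59 and 5.94 CPM per kb, Gsdmd had 3.01, and Birc3 and Tnfrsf10b were lowest, at 0.419 and 0.398 CPM per kb. In OE+Cy the order differed: Mlkl led with 40.6 CPM per kb, Birc2 had 17.9, Birc3 had 14.7 and Gsdmd had 14.1, while Tnfrsf10b remained lowest with 0.520. The members also differed in how far their 6 group means spread. The highest mean was 55.2-fold the lowest for Birc3, 24.3-fold for Gsdmd, 12.6-fold for Mlkl and 8.87-fold for Tnfrsf10b, but 3.17-fold for Birc2, 1.81-fold for Ripk1, 1.63-fold for Cflar, 1.45-fold for Xiap and 1.11-fold for Fadd. All levels below are in CPM after TMM scaling, which suits comparison of a gene between groups.

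**Figure D1:**
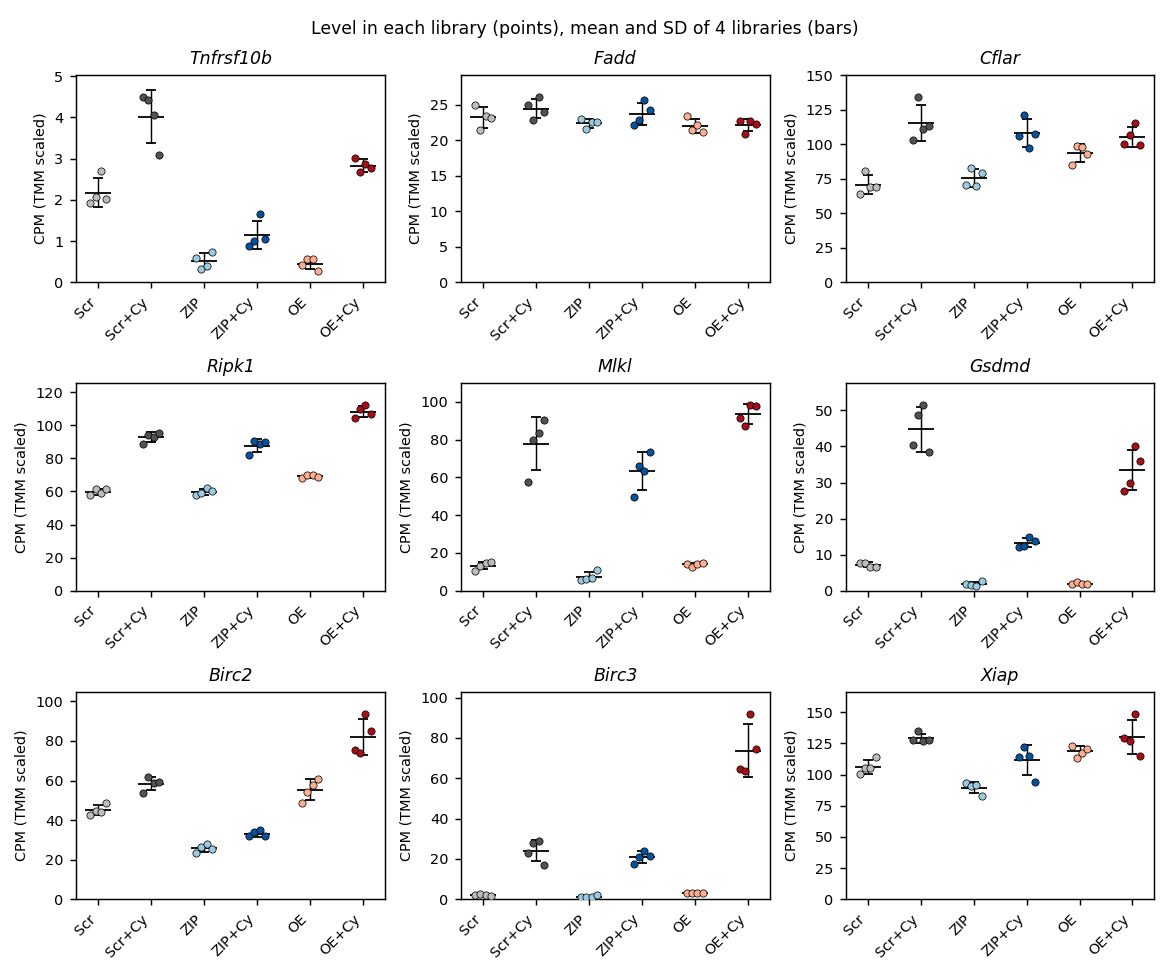
Levels of the 9 measured genes in CPM after TMM scaling (vertical axes, linear from 0) in the 6 groups (horizontal axes). Points are libraries in the order of replicates 1 to 4, and the bars give the mean and SD of 4 libraries. Birc3 reached 63.6 to 91.9 CPM in OE+Cy and at most 28.7 CPM in every other group, whereas Fadd stayed between 20.9 and 26.1 CPM throughout.

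Cytokines raised the executioners of lytic death, the TRAIL receptor and cIAP2 in all 3 lines. A gene was called when its fold change was at least 1.5 with an unadjusted p value under 0.05. By this rule 6 of the 9 genes rose in Scr+Cy against Scr and none fell, while 7.88% of all genes tested rose and 2.67% fell. In ZIP+Cy against ZIP, 4 rose and none fell (7.30% and 5.21% of all genes), and in OE+Cy against OE, 5 rose and none fell (13.0% and 8.02% of all genes). The median log2 fold change of the 9 genes was 0.71, 0.55 and 0.64 in Scr, ZIP and OE, beside medians over all genes of 0.00, -0.01 and 0.02. Birc3, Gsdmd, Mlkl and Tnfrsf10b were called in each of the 3 lines. Ripk1 was called in Scr and OE, and Cflar in Scr.

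**Figure D2:**
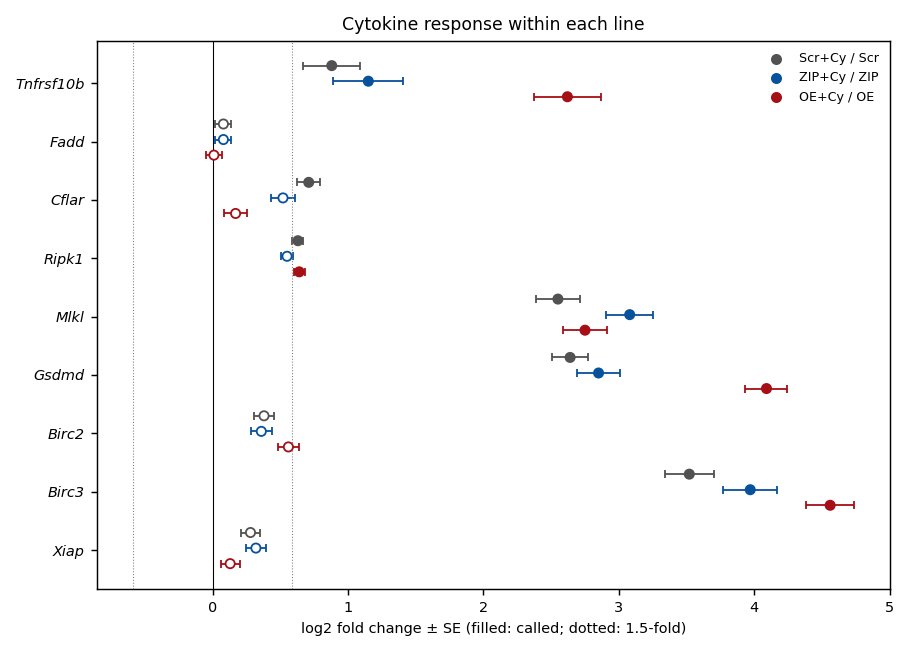
Cytokine response of each gene within each line, as log2 fold change of the cytokine-treated over the untreated group (horizontal axis) with its standard error. Filled symbols passed the 1.5-fold limit (dotted lines) with an unadjusted p value under 0.05. Birc3 had the largest responses (3.52, 3.97 and 4.56 in Scr, ZIP and OE), and Fadd lay at 0.08 or below in every line.

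Among receptors and adaptors, Tnfrsf10b (chr14:69767472-69784411, plus strand, mm10) was scarce. Its levels in the 4 Scr libraries were 1.92, 2.07, 2.69 and 2.01 CPM, and in Scr+Cy they were 4.50, 4.41, 4.05 and 3.09 CPM. The groups did not overlap, and the fold change was 1.85 (log2 fold change 0.88 ± 0.211, SE, adjusted p = 0.00393). ZIP libraries had 0.585, 0.328, 0.403 and 0.739 CPM, and ZIP+Cy libraries 0.873, 1.00, 1.65 and 1.06 CPM. Again every treated library was above every untreated one (log2 fold change 1.15 ± 0.258, adjusted p = 0.00161). OE libraries had 0.423, 0.571, 0.552 and 0.262 CPM and OE+Cy libraries 3.02, 2.68, 2.87 and 2.76 CPM. This was a 6.16-fold rise (log2 fold change 2.62 ± 0.245, adjusted p = 4.82e-09). Both modified lines began below Scr. With cytokines, OE+Cy reached 2.83 ± 0.150 CPM (SD, n = 4), which overlapped with the libraries of untreated Scr, whereas ZIP+Cy, at 1.15 ± 0.343 CPM, stayed below all of them.

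Fadd (chr7:144578323-144582441, minus strand), the adaptor for caspase-8, was the steadiest member. Its means were 23.2 ± 1.43, 22.4 ± 0.641 and 22.0 ± 0.997 CPM in Scr, ZIP and OE, and 24.5 ± 1.35, 23.7 ± 1.57 and 22.2 ± 0.865 CPM with cytokines. The libraries of all 6 groups lay between 20.9 and 26.1 CPM, and the ranges of neighbouring groups in the order of their means overlapped. Its cytokine response had log2 fold changes of 0.08 ± 0.0587, 0.08 ± 0.0593 and 0.01 ± 0.0590 in Scr, ZIP and OE (adjusted p = 0.433, 0.34 and 0.912). Fadd overlaps an antisense gene, Faddos, on the opposite strand, and as the use of strand in counting is not given in the sources used here, its reads are uncertain to that extent.

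Cflar (chr1:58711491-58758882, plus strand), which encodes the caspase-8 modulator cFLIP, had 63.9, 81.0, 69.2 and 69.4 CPM in Scr. With cytokines its Scr+Cy libraries had 103.2, 134.5, 111.4 and 113.0 CPM. The rise was 1.63-fold (log2 fold change 0.71 ± 0.0865, adjusted p = 1.03e-06). In ZIP the libraries had 70.5, 83.0, 69.6 and 79.5 CPM and in ZIP+Cy 106.2, 121.5, 97.2 and 107.5 CPM, which gave a 1.43-fold difference that stayed under the fold limit (log2 fold change 0.52 ± 0.0866, adjusted p = 6.95e-05). OE libraries without cytokines were already at 84.8, 98.6, 98.0 and 93.3 CPM, above every untreated Scr library, and OE+Cy libraries had 100.1, 106.6, 115.3 and 99.4 CPM. There the log2 fold change was 0.17 ± 0.0859 (adjusted p = 0.116). The 3 groups with cytokines thus overlapped with each other in Cflar level, at means of 115.5 ± 13.4, 108.1 ± 10.0 and 105.3 ± 7.41 CPM in Scr+Cy, ZIP+Cy and OE+Cy.

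Ripk1 (chr13:34002363-34035170, plus strand), the kinase at the branch point between survival and death, had a small spread. Scr libraries had 57.9, 61.2, 58.9 and 61.3 CPM and Scr+Cy libraries 88.7, 94.1, 92.6 and 95.5 CPM. Its cytokine response was 1.55-fold in Scr (log2 fold change 0.63 ± 0.0413, adjusted p = 1.6e-11), 1.46-fold in ZIP (0.55 ± 0.0415, adjusted p = 2.06e-10) and 1.56-fold in OE (0.64 ± 0.0412, adjusted p = 5.63e-12). The ZIP value fell below the 1.5-fold limit, and the response did not pass the test of a difference from Scr (difference of log2 fold changes -0.08 ± 0.0584, adjusted p = 0.884). ZIP and ZIP+Cy had means of 59.9 ± 1.84 and 87.7 ± 3.78 CPM, and OE and OE+Cy had 69.3 ± 0.919 and 108.1 ± 3.40 CPM. The gene with 2 of the seed matches printed above was thus at nearly the same mean in untreated ZIP and Scr cells (log2 fold change 0.00 ± 0.0415, adjusted p = 1). In OE cells it was 1.16-fold higher than in Scr, with no overlap of libraries (log2 fold change 0.21 ± 0.0413, adjusted p = 0.000141), which was under the fold limit. Ripk1 overlaps Serpinb6a and 2 other annotated genes, so some of its reads are uncertain.

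Mlkl (chr8:111311798-111338205, minus strand) encodes the pseudokinase that carries out necroptosis. The 4 Scr libraries had 10.6, 12.9, 14.8 and 15.1 CPM, and the 4 Scr+Cy libraries had 57.7, 79.7, 83.5 and 90.4 CPM. The fold change was 5.85 (log2 fold change 2.55 ± 0.162, adjusted p = 8.73e-12). ZIP libraries had 5.82, 6.13, 6.66 and 11.2 CPM, the last being replicate 4, and ZIP+Cy libraries had 49.5, 66, 63.6 and 73.5 CPM. The rise was 8.47-fold (log2 fold change 3.08 ± 0.172, adjusted p = 7.47e-13). OE libraries had 14.3, 12.6, 14.1 and 14.8 CPM and OE+Cy libraries 91.2, 87.3, 98.1 and 98.0 CPM, a 6.72-fold rise (log2 fold change 2.75 ± 0.162, adjusted p = 1.1e-12). The treated groups had means of 77.8 ± 14.1, 63.2 ± 10.1 and 93.6 ± 5.31 CPM in Scr+Cy, ZIP+Cy and OE+Cy. Scr+Cy overlapped with both of the others, while all OE+Cy libraries were above all ZIP+Cy libraries. Gm45712, annotated on the opposite strand, overlaps Mlkl.

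Gsdmd (chr15:75862339-75867404, plus strand) had 7.77, 7.73, 6.50 and 6.63 CPM in Scr. In Scr+Cy its libraries had 40.3, 48.7, 51.4 and 38.5 CPM. This pore-forming gene of pyroptosis rose 6.23-fold there (log2 fold change 2.64 ± 0.134, adjusted p = 1.39e-13). In ZIP it had 1.76, 1.60, 1.43 and 2.59 CPM and in ZIP+Cy 12.2, 12.4, 14.9 and 13.9 CPM, a 7.23-fold rise (log2 fold change 2.85 ± 0.162, adjusted p = 1.03e-12). OE had 1.90, 2.37, 1.74 and 1.83 CPM and OE+Cy 27.7, 30.0, 40.0 and 36.1 CPM, a 17.0-fold rise (log2 fold change 4.09 ± 0.155, adjusted p = 2.76e-16). The order of group means was Scr+Cy, OE+Cy, ZIP+Cy, Scr, OE and ZIP. In that order Scr+Cy overlapped with OE+Cy and OE with ZIP, while ZIP+Cy and Scr each stood apart from their neighbours.

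Birc2 and Birc3 are neighbours on chromosome 9 (chr9:7818226-7837057 and chr9:7848701-7873170, both on the minus strand), with 11.6 kb between them. Birc3, which encodes cIAP2, had 1.97, 2.50, 2.16 and 1.77 CPM in Scr. The Scr+Cy libraries had 23.0, 27.8, 28.7 and 17.0 CPM. The fold change was 11.5 (log2 fold change 3.52 ± 0.182, adjusted p = 1.91e-13). ZIP had 1.02, 1.28, 1.02 and 2.02 CPM and ZIP+Cy 17.3, 20.9, 24.1 and 21.7 CPM, a 15.7-fold rise (log2 fold change 3.97 ± 0.200, adjusted p = 1.16e-13). OE had 3.35, 2.99, 2.98 and 3.21 CPM and OE+Cy 64.8, 63.6, 91.9 and 74.4 CPM, a 23.5-fold rise (log2 fold change 4.56 ± 0.176, adjusted p = 4e-16). No cytokine-treated library of the other lines reached the lowest OE+Cy library.

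Birc2, which encodes cIAP1, moved less with cytokines than Birc3. Its libraries had 42.7, 44.7, 43.9 and 48.5 CPM in Scr, and those of Scr+Cy had 53.7, 61.6, 58.9 and 59.2 CPM. In ZIP they had 23.6, 26.5, 27.9 and 25.3 CPM and in ZIP+Cy 31.9, 34, 35.0 and 32.0 CPM. In OE they had 48.6, 54.4, 57.6 and 60.9 CPM and in OE+Cy 75.2, 74.0, 93.7 and 84.8 CPM. Treated and untreated libraries were apart in each line, at log2 fold changes of 0.38 ± 0.0756, 0.36 ± 0.0786 and 0.56 ± 0.0750 in Scr, ZIP and OE (adjusted p = 0.000767, 0.00118 and 1.2e-06), all below the fold limit. Of the 24 libraries, 8 had a Birc2 value that was not a whole number within 0.05 reads, while the sum of Birc2 and Birc3 was whole in all of them. Some reads were thus divided between the 2 paralogs, and their values are uncertain to that extent. At the stricter limit of 0.005 reads, Birc2 was not whole in 16 libraries and Birc3 in 9. Values that were not whole were not particular to this pair. At that limit they occurred in 24 libraries for Xiap, 21 for Cflar, 19 for Ripk1 and 11 for Mlkl, and in none for Gsdmd, Tnfrsf10b and Fadd.

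Xiap (chrX:42067836-42109664, plus strand), the caspase inhibitor with 1 seed match, had means of 106.3 ± 5.59, 89.4 ± 4.60 and 118.5 ± 4.03 CPM in Scr, ZIP and OE and 129.2 ± 3.61, 111.3 ± 12 and 130.1 ± 13.8 CPM with cytokines. No comparison reached the fold limit. The cytokine response was 1.22-fold in Scr (log2 fold change 0.28 ± 0.0709, adjusted p = 0.00626), 1.24-fold in ZIP (0.32 ± 0.0714, adjusted p = 0.00168) and 1.10-fold in OE (0.13 ± 0.0708, adjusted p = 0.131). Untreated ZIP libraries, at 92.8, 90.4, 91.7 and 82.7 CPM, were all below the Scr libraries, at 100.8, 105.3, 105.1 and 114.1 CPM (log2 fold change -0.25 ± 0.0713, adjusted p = 0.00968). OE libraries, at 122.8, 113.4, 117.4 and 120.4 CPM, overlapped with Scr (0.16 ± 0.0709, adjusted p = 0.0703).

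Without cytokines, more members were called lower than Scr in ZIP than in OE, where the count lay near the share over all genes. In ZIP against Scr, 5 of 9 genes were lower and none was higher (6.91% and 7.97% of all genes), with a median log2 fold change of -0.65 against 0.00 over all genes. These were Tnfrsf10b, Gsdmd, Mlkl, Birc2 and Birc3. In OE against Scr, 2 of 9 were lower, Tnfrsf10b and Gsdmd, and none was higher, beside 14.4% of all genes lower and 11.2% higher. The median of the members was 0.16. Ripk1, Cflar, Birc2 and Birc3 were higher in OE without overlap of libraries, but under the fold limit. Their log2 fold changes were 0.21, 0.40, 0.30 and 0.57, each with an adjusted p value under 0.05. Both comparisons share the 4 Scr libraries.

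**Figure D3:**
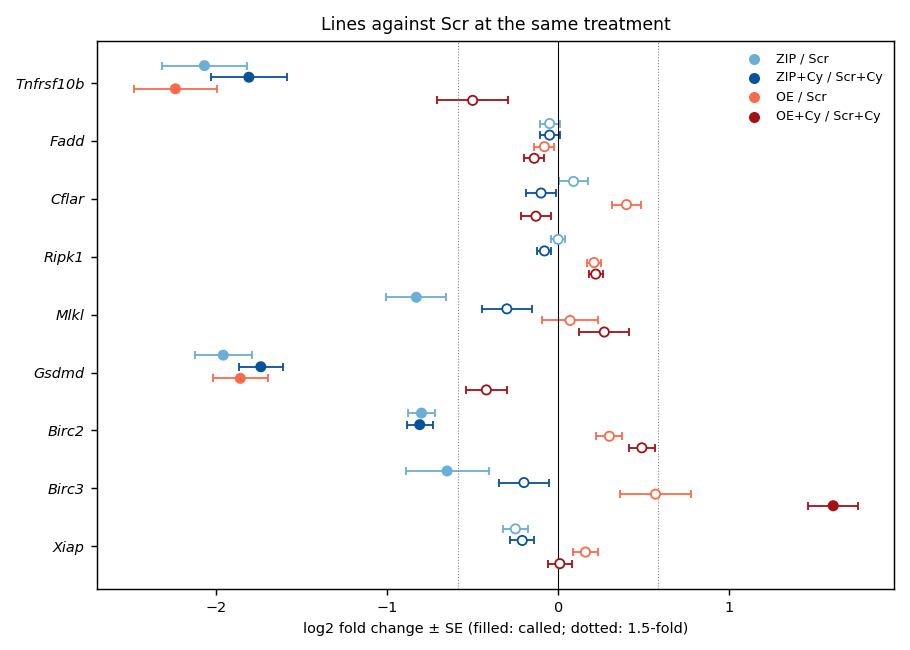
Difference of ZIP and OE from Scr without cytokines and of ZIP+Cy and OE+Cy from Scr+Cy, as log2 fold change (horizontal axis) with its standard error. Filled symbols passed the 1.5-fold limit (dotted lines) with an unadjusted p value under 0.05. Tnfrsf10b and Gsdmd lay near -2 in ZIP and OE without cytokines, and Birc2 near -0.80 in ZIP with and without cytokines.

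Tnfrsf10b was 4.20-fold lower in ZIP than in Scr (log2 fold change -2.07 ± 0.247, adjusted p = 4.43e-07) and 4.72-fold lower in OE than in Scr (-2.24 ± 0.245, adjusted p = 4.18e-08). Gsdmd was 3.88-fold lower in ZIP (-1.96 ± 0.166, adjusted p = 1.85e-09) and 3.64-fold lower in OE (-1.86 ± 0.161, adjusted p = 6.94e-10). No ZIP or OE library reached the lowest Scr library for either gene.

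The other called differences of untreated cells were seen in ZIP. Birc2 was 1.74-fold lower, with no overlap (log2 fold change -0.80 ± 0.0778, adjusted p = 1.84e-08). Mlkl was 1.78-fold lower (-0.83 ± 0.175, adjusted p = 0.000692), and ZIP replicate 4, at 11.2 CPM, was the only ZIP library to reach the lowest Scr library, at 10.6 CPM. Without that library the log2 fold change of Mlkl was -1.10. Birc3 was 1.57-fold lower (-0.65 ± 0.243, adjusted p = 0.048), with overlapping libraries, and this call did not hold when Scr replicate 2, ZIP replicate 1 or ZIP replicate 3 was left out (-0.55, -0.55 and -0.53), nor without the 3 libraries with fibroblast markers (-0.58). In OE, Birc3 had the value 0.57 ± 0.207 (adjusted p = 0.024), Cflar 0.40 ± 0.0863 (adjusted p = 0.000396) and Birc2 0.30 ± 0.0755 (adjusted p = 0.00176), all under the fold limit. Birc3 passed the limit in OE with DESeq2 (0.59) and when Scr replicate 2 or 3 or OE replicate 2 or 3 was left out (0.60 to 0.67).

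The lower level of Birc2 and Birc3 in ZIP lay among other lower genes of the same stretch. Within 1 Mb of Birc2 were 7 other measured genes, of which 4 were called lower and 1 higher in ZIP than in Scr. Their median log2 fold change was -0.65, and the nearest, Tmem123, Birc3, Cfap300 and Cep126, had -0.83, -0.65, -0.96 and -1.23. The higher gene was Mmp13, at 2.10. In OE none of the 7 was lower, 1 was higher, and the median was 0.24. Around the other members lower in ZIP no such pattern was seen: of 52 neighbours of Gsdmd 1 was lower and 2 were higher, with a median of -0.07, of 22 neighbours of Tnfrsf10b none was lower and 3 were higher, with a median of -0.04, and of 27 neighbours of Mlkl 1 was lower and 2 were higher, with a median of 0.06. The neighbours were examined after the values of the members were known, and the cause of a shared difference over a stretch was not tested.

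**Figure D4:**
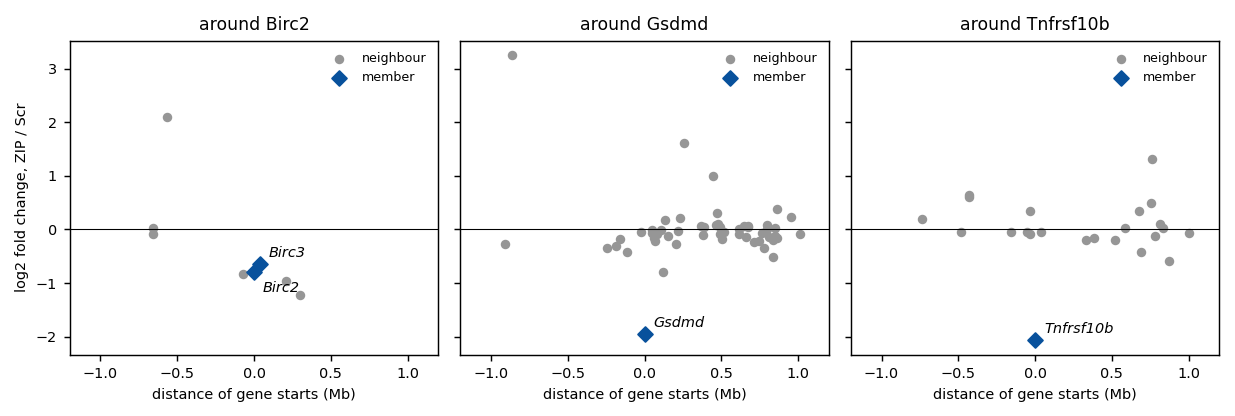
Log2 fold change of ZIP over Scr without cytokines (vertical axis) for genes within 1 Mb of Birc2, Gsdmd and Tnfrsf10b, placed by the distance between gene starts (horizontal axis, Mb, positive towards higher coordinates). Diamonds are members and grey points their measured neighbours. Near Birc2 the 4 nearest genes lay between -0.65 and -1.23, whereas the neighbours of Gsdmd and Tnfrsf10b had medians of -0.07 and -0.04.

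With cytokines, 3 of 9 genes were lower in ZIP+Cy than in Scr+Cy and none was higher, against 8.67% and 7.11% of all genes. These were Tnfrsf10b, 3.50-fold lower (log2 fold change -1.81 ± 0.224, adjusted p = 8.4e-07), Gsdmd, 3.35-fold lower (-1.74 ± 0.128, adjusted p = 1.78e-10), and Birc2, 1.76-fold lower (-0.81 ± 0.0769, adjusted p = 1.18e-08). Their libraries did not overlap. Mlkl and Birc3, lower in untreated ZIP cells, had values of -0.30 ± 0.148 (adjusted p = 0.141) and -0.20 ± 0.148 (adjusted p = 0.349) with overlapping libraries. The median over the 9 genes was -0.21.

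In OE+Cy against Scr+Cy, 1 of 9 genes was called, close to the background of 13.7% of all genes higher and 14.8% lower. That gene was Birc3, 3.06-fold higher with no overlap between libraries (log2 fold change 1.61 ± 0.146, adjusted p = 1.66e-09). Birc2 was 1.41-fold higher without overlap (0.49 ± 0.0750, adjusted p = 6.11e-06), under the fold limit. Gsdmd and Tnfrsf10b, which were lower in untreated OE cells, had values of -0.42 ± 0.122 (adjusted p = 0.00581) and -0.50 ± 0.209 (adjusted p = 0.0475), also under the limit. Tnfrsf10b passed it when Scr+Cy replicate 4 was left out (-0.61). The median over the members was 0.01.

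Whether the cytokine response differed between lines was tested as an interaction. Here an adjusted p value under 0.05 was the only requirement, whatever the fold change. For ZIP against Scr none of the 9 genes passed in edgeR, where 0.0509% of all genes had a larger and 0.00565% a smaller response. The largest difference was that of Mlkl (0.53 ± 0.229, adjusted p = 0.718), the member with the smallest unadjusted p value and the only one under 0.05, and DESeq2 also gave none that passed. For OE against Scr, 3 genes had a larger and 1 a smaller response (9.65% and 10.3% of all genes). The difference of log2 fold changes was 1.74 ± 0.322 for Tnfrsf10b (adjusted p = 0.000482), 1.45 ± 0.202 for Gsdmd (adjusted p = 3.08e-05) and 1.04 ± 0.254 for Birc3 (adjusted p = 0.00516). For Tnfrsf10b and Gsdmd the larger response began from the lower untreated level and ended at or below the Scr+Cy level, whereas Birc3 ended above it. Cflar had the smaller response (-0.54 ± 0.122, adjusted p = 0.00283), from a higher untreated level. Among the other members the difference for Mlkl was 0.20 ± 0.221 and for Ripk1 0.01 ± 0.0582 (adjusted p = 0.587 and 0.956). Irf1, a transcription factor induced by IFNγ, reached 657 to 810 CPM in OE+Cy against 365 to 433 CPM in Scr+Cy, and its part in these differences was not tested.

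Against untreated Scr, the control shared by all of the study's comparisons, 4 genes were higher and 1 lower in ZIP+Cy (12.2% and 9.49% of all genes), with a median of 0.55. Mlkl, Birc3, Gsdmd and Cflar had log2 fold changes of 2.25, 3.32, 0.90 and 0.61, and Tnfrsf10b remained below Scr at -0.92 ± 0.226 (adjusted p = 0.0019). The call of Cflar did not hold without Scr replicate 1 (0.56), ZIP+Cy replicate 2 (0.55) or the 3 libraries with fibroblast markers (0.56), nor when ZIP replicate 4 was left out with those 3 (0.56). In OE+Cy, 5 genes were higher and none lower (18.4% and 15.8% of all genes), with a median of 0.85: Birc3 at 5.13 (35.0-fold), Mlkl at 2.81, Gsdmd at 2.22, Birc2 at 0.87 and Ripk1 at 0.85. Cflar, at 0.57 ± 0.0864, was just under the limit, and passed it with DESeq2 (0.59).

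Of 72 further genes of these pathways, listed by role, 67 had a row. With cytokines 23 rose and none fell in Scr, 25 rose and none fell in ZIP, and 35 rose and 4 fell in OE, at median log2 fold changes of 0.45, 0.52 and 0.69. Over all genes 7.88%, 7.30% and 13.0% rose and 2.67%, 5.21% and 8.02% fell, so that more genes of any kind were called in OE. In Scr+Cy the genes that rose were 4 of 14 ligands and receptors, 7 of 22 adaptors, ubiquitin enzymes and kinases of the TNF receptor complex, 2 of 6 caspases and Bid, 3 of 6 other necroptosis genes, 3 of 9 other pyroptosis genes and 4 of 10 other IAPs and IAP antagonists. In OE+Cy these counts were 8, 11, 4, 3, 5 and 4. Zbp1, a nucleic acid sensor that can activate RIPK3, had log2 fold changes of 7.92 ± 0.658 in Scr, 6.62 ± 0.597 in ZIP and 11.10 ± 0.821 in OE. Its untreated means were low, at 1.23 ± 1.74 CPM in Scr, 3.05 ± 4.61 in ZIP and 0.189 ± 0.209 in OE. With cytokines the means were 287.9 ± 54.3, 305.1 ± 64.3 and 411.0 ± 48.8 CPM. Against Scr+Cy, the log2 fold change was 0.08 ± 0.430 in ZIP+Cy and 0.51 ± 0.431 in OE+Cy (adjusted p = 0.918 and 0.329). The OE+Cy and Scr+Cy libraries did not overlap. The inflammatory caspases that cut gasdermin D were near 0 in untreated cells: Casp1 went from 0.287 ± 0.0702 CPM in Scr to 24.6 ± 5.59 CPM in Scr+Cy, and Casp4 from 0.0754 ± 0.0748 to 7.21 ± 1.63 CPM (log2 fold changes 6.40 ± 0.344 and 6.54 ± 0.602).

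**Figure D5:**
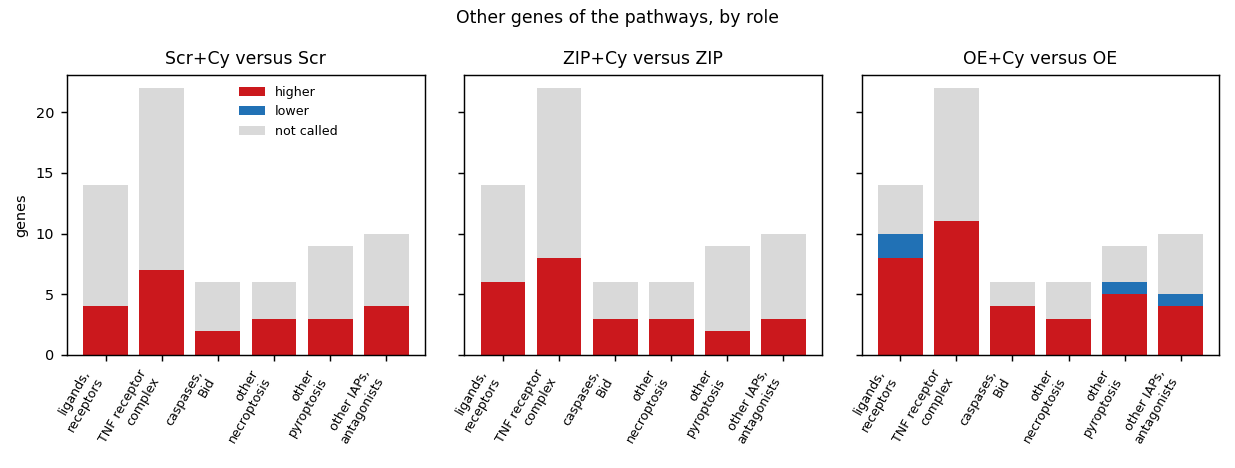
Numbers of the 67 further pathway genes called higher (red), lower (blue) or not called (grey) after cytokines in each line, by role (horizontal axis). In OE+Cy 35 genes rose and 4 fell, beside 23 and 25 that rose in Scr+Cy and ZIP+Cy, where none fell.

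Tnf itself, 1 of the 3 cytokines added, had no reads in any untreated Scr library and 0.815 ± 0.376 CPM in Scr+Cy, at least 9.22-fold higher against a detection limit of 3 reads per library. Its mean was 4.16 ± 1.80 CPM in ZIP+Cy. In OE+Cy it was 52.2 ± 10.8 CPM, at least 591-fold higher than in OE. Tnfsf10, which encodes TRAIL, the ligand of the receptor Tnfrsf10b, had 2.91 ± 1.22 CPM in Scr, 195.7 ± 47.3 CPM in Scr+Cy, and 455.8 ± 61.1 and 552.0 ± 87.2 CPM in ZIP+Cy and OE+Cy. The ligand was thus higher in ZIP+Cy than in Scr+Cy (by 1.22 ± 0.253 on the log2 scale, adjusted p = 0.000654), while its receptor was lower. Xaf1, an antagonist of XIAP, rose in every line, by 5.81 ± 0.314 in Scr, 5.32 ± 0.307 in ZIP and 8.90 ± 0.384 in OE on the log2 scale. Its means went from 0.923 ± 0.292 to 52.4 ± 7.91 CPM in Scr and from 0.215 ± 0.111 to 103.0 ± 16.8 CPM in OE. OE+Cy was above Scr+Cy by 0.98 ± 0.213 (adjusted p = 0.000442). In OE+Cy the decoy receptor gene Tnfrsf23 (-1.12 ± 0.219), Birc5, which encodes survivin (-0.79 ± 0.0851), and Tnfrsf21, which encodes death receptor 6 (-0.68 ± 0.164), were lower than in OE. Tnfrsf11b, which encodes osteoprotegerin, a soluble receptor that binds TRAIL, was at least 39.5-fold higher in OE+Cy than in Scr+Cy.

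Between untreated lines, 8 of the 67 genes were higher and 6 lower in ZIP than in Scr, and 10 were higher and 14 lower in OE. These counts lay near the shares over all genes, of which 7.97% were higher and 6.91% lower in ZIP and 11.2% higher and 14.4% lower in OE. Casp8, the initiator caspase recruited by Fadd, was lower in ZIP (log2 fold change -1.08 ± 0.0984, adjusted p = 5.65e-09), at 6.14 ± 1.01 CPM against 13.0 ± 1.26 in Scr and 27 ± 2.18 in OE. Pycard, the adaptor of the inflammasome, was higher in ZIP (2.56 ± 0.286) and in OE (4.36 ± 0.262), from 0.169 ± 0.0715 CPM in Scr to 1.01 ± 0.291 and 3.54 ± 0.102 CPM. With cytokines 11 were higher and 4 lower in ZIP+Cy and 18 were higher and 9 lower in OE+Cy, both against Scr+Cy, beside 7.11% and 8.67% of all genes in ZIP+Cy and 13.7% and 14.8% in OE+Cy. Among them Cyld, a deubiquitinase that acts on RIPK1 chains, was lower in ZIP+Cy (-0.64 ± 0.0677), and Ppm1b, a phosphatase that acts on RIPK3, was lower in OE+Cy (-0.87 ± 0.0635). Against untreated Scr 28 were higher and 1 lower in ZIP+Cy, and 33 were higher and 6 lower in OE+Cy (12.2%, 9.49%, 18.4% and 15.8% of all genes). The cytokine response differed from that of Scr for 1 of the 67 genes in ZIP (larger, beside 0.0509% of all genes). In OE it differed for 20 of them (16 larger and 4 smaller, beside 9.65% and 10.3% of all genes). Without the 4 libraries that stood apart, ZIP against Scr gave 6 higher and 4 lower of the 67, and the ZIP response differed for none. With DESeq2, and also with the replicate block, the ZIP response was larger for 3 of the 67.

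Across the 24 libraries, which share the 6 groups and so the cytokine treatment, Ripk1 and Birc3 correlated at r = 0.981, Mlkl and Birc3 at 0.971 and Ripk1 and Mlkl at 0.956 (Pearson, log2 CPM). Gsdmd correlated with Tnfrsf10b at 0.905, and Fadd correlated with no member above 0.443. Among 12670 genes, the genes most like Mlkl were Rsad2 (0.989) and Cenpj (0.983), those most like Gsdmd were Ly75 (0.960) and Dram1 (0.958), and those most like Tnfrsf10b were Atp8a1 (0.939) and Smim6 (0.919). Birc2 was most like Eps8l2 (0.966) and Stxbp3 (0.965), and Birc3 most like B3gnt3 (0.988) and F11r (0.987). These values describe 24 libraries that fall into groups and carry no test.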

How the data were processed

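MIN6 libraries (KAPA mRNA Hyper Prep) were assigned to 6 groups of 4 from their labels. Per the study's methods and processing notes, the authors used FastQC for read quality, STAR (2.7.8a in the processing notes) for alignment to mm10 and Partek Flow (11.0.24.0204 in the notes) for assignment to RefSeq transcripts. Genes whose reads summed to under 10 were removed, and DESeq2 was the authors' test. The quantification method and use of strand are not given in the sources used here. The values used here are the estimated counts of each gene as the authors deposited them, not normalized. Of the values, 24.4% were not whole within 0.005 reads. A deposited table scaled by median ratios was not used.

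Estimated counts were rounded and fitted with 6 group means in edgeR 4.0.16 (R 4.3.3, TMM, glmQLFit and glmQLFTest) over all 17696 genes and 24 libraries, and Benjamini-Hochberg adjusted p values cover all genes of a comparison. SE is the size of a log2 fold change over the square root of F. Correlations used log2 CPM with a prior count of 2. Detection limits cover counting error only. Depth was 26657792 to 37168232 reads. Simulated data with known changes were used to test the fit. Coordinates are those of the files (mm10), and 99.8% of 17680 genes matched by symbol overlapped their RefSeq GRCm38.p6 interval. Overlapping genes and exon lengths came from GENCODE M21.

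The members, the pathway list and the marker lists were chosen with earlier results of these data known. All members are named, and of the pathway list up to 3 highest and 3 lowest called genes per comparison that also passed 0.05 after adjustment, reached 1 CPM on average in 1 of the groups and had groups that do not overlap, of which 1 gene is not reported here. For members whose group means were at least 2-fold apart, the 2 most correlated genes with a mean of at least 1 CPM are named. Other genes named were chosen after their values were seen.

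Replicate numbers come from the labels. Deviations from group means correlated over 0.1 for every number (12700 genes) in Scr+Cy against Scr (0.413 to 0.626), ZIP+Cy against ZIP (0.261 to 0.397), OE+Cy against OE (0.162 to 0.455), ZIP against Scr (0.141 to 0.634) and ZIP+Cy against Scr+Cy (0.191 to 0.37). In the other 4 comparisons they did not for every number. The main fit held no replicate term in any comparison, so the SE and p values printed do not use this pairing. A replicate block, which adds the replicate number, was fitted only as an alternative, in all comparisons. Alternatives were DESeq2 1.42.0, its size factors in edgeR, filterByExpr, only the groups compared, the replicate block, adjusted p values with and without the fold limit, leaving out each library and, chosen after seeing the data, leaving out the 3 libraries with at least 10 CPM of fibroblast markers, also with ZIP replicate 4.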

Additional observations from a re-analysis of the deposited data

Results flagged for a closer look

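Over 54 combinations of gene and group, 2 libraries lay apart from the other 3 of their group by Dixon's criterion, where chance would give about 1 in 20. Mlkl had 11.2 CPM in ZIP replicate 4 against 5.82 to 6.66 CPM in the other ZIP libraries, and this library also had the raised Cxcl10 and Gbp2 levels given above. Xiap had 134.6 CPM in Scr+Cy replicate 2 against 126.9 to 127.8 CPM in the others.

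The cytokine response differed between OE and Scr by the interaction test for 4 genes. The difference of log2 fold changes was 1.74 for Tnfrsf10b, 1.45 for Gsdmd, 1.04 for Birc3 and -0.54 for Cflar.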

How the results depend on the processing

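Of 1629 values of the 99 combinations of gene and comparison under the alternatives, 1606 kept their call, 8 lost and 15 gained it, and no called value reversed. Among values that were not called, 7 combinations changed sign under at least 1 alternative. The changed calls concern 6 combinations. One of them is not given above: Birc2 in OE+Cy against OE passed the fold limit without OE replicate 4, OE+Cy replicate 1 or OE+Cy replicate 2 (0.60 to 0.61). With adjusted p values and no fold limit, 8 genes rather than 4 were called in ZIP+Cy against ZIP (also Birc2, Cflar, Ripk1 and Xiap), 6 rather than 2 in OE against Scr (also Birc2, Birc3, Cflar and Ripk1) and 6 rather than 1 in OE+Cy against Scr+Cy (also Birc2, Fadd, Gsdmd, Ripk1 and Tnfrsf10b), because the limit was removed. The shares of all genes called without the fold limit are not given here, so these counts cannot be set against a background. Leaving out each library in turn gave 1 to 2 called genes in OE+Cy against Scr+Cy, 2 without Scr+Cy replicate 4. The replicate block called 6 genes in Scr+Cy against Scr, 4 in ZIP+Cy against ZIP and 5 in OE+Cy against OE, and changed no call. Tnfrsf10b, with as few as 8 reads, is the member most limited by depth.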
